A study of Fukomys damarensis and Heterocephalus glaber and Mus musculus with 160 samples.

Results

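Guinea pig liver and heart were compared by their maps of H3K27ac, acetylation of lysine 27 on histone H3. The maps came from chromatin immunoprecipitation followed by sequencing (ChIP-seq), in which DNA bound by an antibody to the mark is sequenced and stretches with excess reads are called as peaks. All lists with the guinea pig as species, liver or heart as tissue and H3K27ac as antibody were taken: 6 of the 116 samples with a peak list, in a series of 160 samples that also holds naked mole-rat, Damaraland mole-rat and mouse. The 6 lists held 563144 peaks in all.

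The 3 liver and the 3 heart libraries came from the same 3 animals, GuineaPig7, GuineaPig8 and GuineaPig9, all wild-type adult males aged 2.3 months with no treatment named. Whole organs were diced and crosslinked, after perfusion of the liver, so each list averages over the cell types of its organ. In such bulk tissue, fewer cells carrying a mark and less of the mark per cell cannot be told apart. The liver libraries carry consecutive library numbers and the heart libraries come from other number series, so number series and tissue cannot be told apart either. Positions are on Cavpor3.0, a guinea pig assembly made of scaffolds, and no gene annotation of that build was used here, so regions are named by position and the tissue labels were not checked against marker genes.

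H3K27ac is laid down by the acetyltransferases CBP and EP300 and marks promoters and enhancers in use. Other marks help to sort them: H3K4me3, trimethylation of lysine 4, is concentrated at active promoters, while H3K4me1, monomethylation of the same lysine, is typical of enhancers. Promoters of genes that every cell needs are acetylated in most tissues, whereas much of the enhancer repertoire is particular to a cell type such as the hepatocyte or the cardiomyocyte. The fold used below is the authors' value per peak, the enrichment of the immunoprecipitated DNA over background. It is a linear ratio and was used only to rank peaks within a list, as a percentile from 0 to 100.

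The liver peaks were wider and covered more of the genome. The liver lists held 100473, 91478 and 100322 peaks in GuineaPig7, GuineaPig8 and GuineaPig9, and the heart lists held 93399, 97784 and 79688. The numbers overlapped between the tissues, with means of 97424 ± 5150.2 in liver and 90290.3 ± 9440.03 in heart (SD, n = 3 each; two-sided exact permutation p = 0.3). Median peak width was 601, 586 and 576 bases in liver and 411, 479 and 485 bases in heart, so the narrowest liver median lay above the widest heart median. The ratio of the geometric means was 1.29 (exact permutation p = 0.1, adjusted p = 0.125 over 5 liver against heart results). With 3 libraries against 3 a p of 0.1 is the smallest that can be reached. Peaks covered 110, 98.3 and 105 Mb in liver and 66.6, 79.97 and 62.5 Mb in heart, a ratio of 1.504 with no overlap (exact permutation p = 0.1, adjusted p = 0.125). The upper end of the width distribution differed in the same direction, since the 90th percentile was 2276 to 2408 bases in liver and 1586 to 1774 bases in heart.

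**Figure D1:**
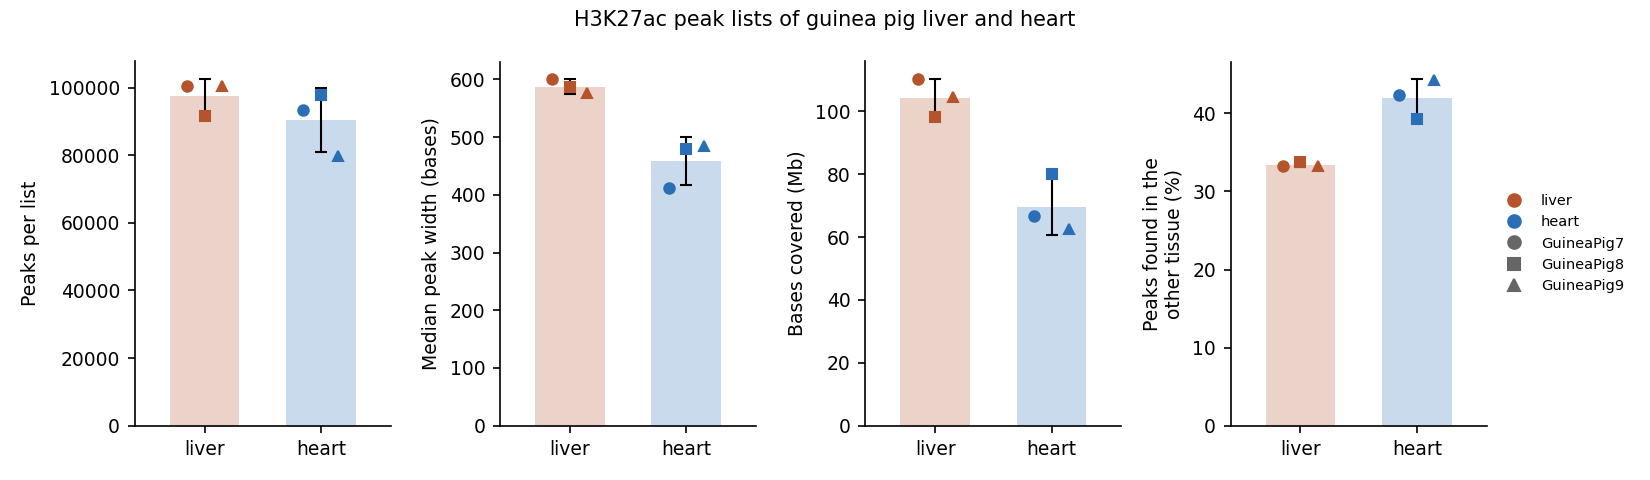
Each panel gives a value of the 6 H3K27ac lists by tissue: peaks per list, median peak width in bases, bases covered in Mb and the percentage of peaks found in the consensus of the other tissue. Bars are means of 3 libraries, error bars are SDs and marker shapes are animals; only the number of peaks overlaps between liver and heart.

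A consensus region of a tissue was a stretch of at least 150 bases covered by peaks of at least 2 of its 3 libraries. Liver had 87225 such regions over 99.8 Mb, and heart had 77578 over 65.1 Mb. A region was taken as found in both tissues when it overlapped a consensus region of the other tissue over at least 50% of the shorter of the pair, and as found in 1 tissue when no peak of any library of the other tissue touched it; the rest were called intermediate. Of the liver regions, 31444 (36.0%) were in both tissues, 8176 (9.37%) were intermediate and 47605 (54.6%) were found in liver alone. Of the heart regions, 35602 (45.9%) were in both, 7893 (10.2%) were intermediate and 34083 (43.9%) were found in heart alone. The division was mostly clear-cut: 28224 liver regions (32.4%) were touched by peaks of all 3 heart libraries, and 5919 (6.79%) and 5477 (6.28%) by those of 1 and 2. In heart, 31984 regions (41.2%) were touched by all 3 liver libraries, 5834 (7.52%) by 1 and 5677 (7.32%) by 2.

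Counted by peaks of single libraries, 33.2%, 33.7% and 33.2% of liver peaks lay in a heart consensus region, and 42.3%, 39.3% and 44.2% of heart peaks lay in a liver one. The groups did not overlap, and the mean difference, liver minus heart, was -8.55 percentage points (exact permutation p = 0.1, adjusted p = 0.125). With 1 library left out, a consensus needs both of the 2 remaining libraries. Without the liver of GuineaPig7, GuineaPig8 or GuineaPig9 the difference was then -2.62, -5.88 and -3.14 (exact permutation p = 0.3, 0.2 and 0.2). Without the heart of GuineaPig8 it was -15.0 (exact permutation p = 0.1). When an overlap had to cover 50% of the longer of the pair it was -1.10. With an equal number of peaks in each list it was -6.03. The liver consensus was the larger target, at 99.8 Mb against 65.1 Mb in heart, and the part of target size in the difference was not tested. Regions found in both tissues made up more of the acetylated length than of the number of regions. They held 51.5% of the bases of the liver consensus and 63.4% of the bases of the heart consensus. A share of each list was found in no consensus region of its own tissue, 15.9% to 22.0% of peaks in liver and 16.1% to 29.8% in heart, and these peaks were narrow, with medians of 228 to 331 bases.

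Shared regions were often split differently. Of the 31444 liver regions in both tissues, 5179 (16.5%) matched more than 1 heart region, while 2306 (6.48%) of the 35602 heart regions matched more than 1 liver region. The extreme case was a liver region that matched 16 heart regions. For 21140 regions that matched 1 to 1, the median width was 979 bases in liver and 847 bases in heart, and 63.0% were wider in liver. The liver region was at least 2-fold wider at 18.8% of these and the heart region at 11.02%.

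The fold of a peak went with whether it was found in the other tissue. In the highest decile of fold, 81.6%, 76.8% and 82.3% of liver peaks and 96.3%, 92.4% and 94.2% of heart peaks lay in the consensus of the other tissue. In the lowest decile the shares were 15.3%, 20.2% and 16.7% in liver and 26.3%, 22.9% and 26.4% in heart. The difference averaged 66.0 percentage points (range 56.6 to 69.98, SD 4.91, higher in 6 of 6 libraries; two-sided exact sign-flip p = 0.031, adjusted p = 0.0391 over 5 results). The difference was 62.9 ± 5.45 points in liver and 69.1 ± 1.17 in heart (SD, n = 3 each), with no overlap (exact permutation p = 0.1). The test takes 6 libraries as independent; taken by animal, an exact sign-flip test of 3 values cannot go below p = 0.25, which this result and the 3 further results on regions in both tissues that passed the test each reached.

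Peaks of low fold were also found less often in libraries of their own tissue, so both shares are needed. They were narrower too. In the liver of GuineaPig7 the median width was 318 bases in the lowest decile and 2491 in the highest. In the heart of GuineaPig7 it was 236 and 1591. Overlap was counted over the shorter of the pair, and the part of width in the shares by fold was not tested. In the lowest decile, a single other liver list held 43.7% ± 7.23 of liver peaks and a single heart list held 18.4% ± 2.53 (SD, n = 3). In the fifth decile the shares were 60.1% ± 4.56 and 23.2% ± 0.524, and in the eighth they were 96.8% ± 0.791 and 43.7% ± 0.432. Nearly all liver peaks of the eighth decile were thus found in another liver list, and fewer than 1 in 2 in a heart list. In the highest decile the shares were 99.96% ± 0.0225 and 80.9% ± 2.92. The quotient of the share in heart lists to the share in liver lists was lowest in the sixth decile, at 0.377, and highest in the top decile, at 0.809.

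Heart peaks gave the same picture at a higher level of sharing. In the lowest decile, 44.6% ± 9.21 were found in a single other heart list and 25.8% ± 1.71 in a single liver list (SD, n = 3). In the eighth decile the shares were 92.1% ± 3.596 and 52.8% ± 3.66, and in the highest they were 99.9% ± 0.0359 and 94.4% ± 1.88. The quotient was lowest in the seventh decile, at 0.508, and reached 0.944 in the top decile. In each decile the quotient was higher for heart than for liver peaks. The liver lists covered more bases than the heart lists, and the part of this in the quotients was not tested.

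**Figure D2:**
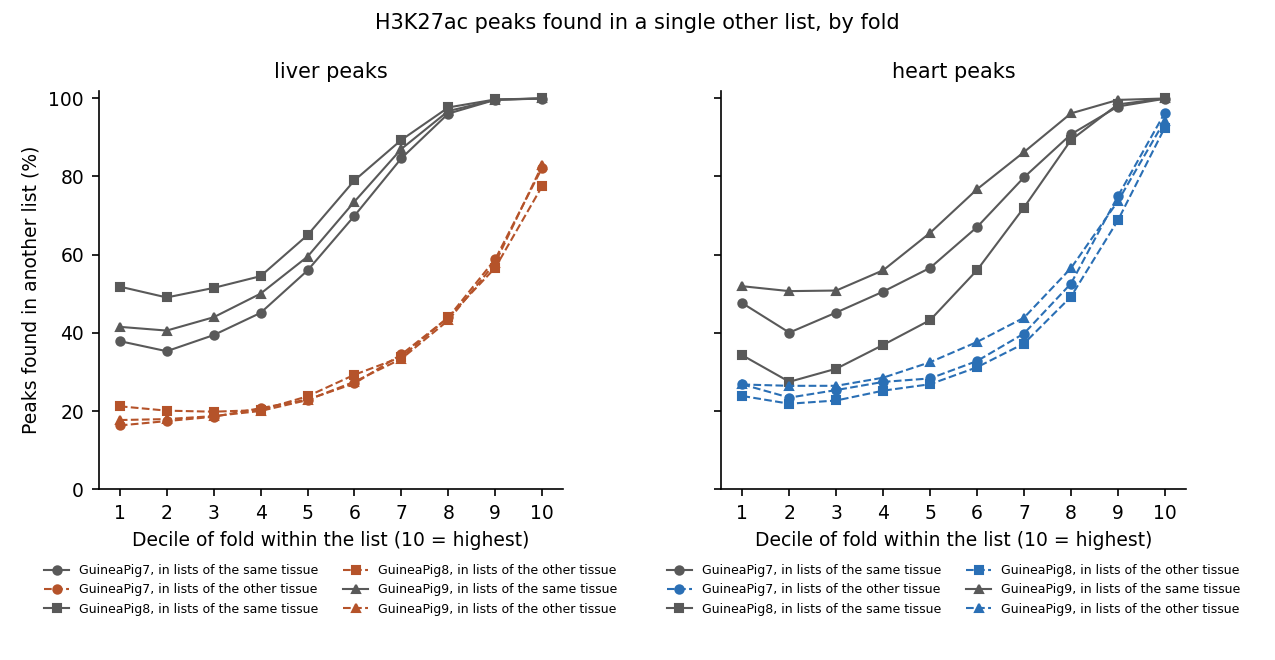
The x axis gives the decile of fold within a list (10 is the highest), and the y axis the percentage of peaks found in a single other list, as the mean over the other lists. Solid grey lines are lists of the same tissue and dashed lines those of the other tissue, 1 line per library; the lines approach each other in the top decile more closely for heart (99.9% and 94.4%) than for liver (99.96% and 80.9%).

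Width sorted peaks in a similar way. Liver peaks under 500 bases were found in single heart lists at 19.0% ± 0.845, those of 1000 to 2000 bases at 53.2% ± 0.988 and those of 5000 bases or more at 66.3% ± 2.40 (SD, n = 3). For heart peaks in single liver lists the same classes gave 27.5% ± 2.54, 69.2% ± 4.25 and 89.1% ± 2.22. All peaks of 5000 bases or more were found in every single list of the same tissue. Overlap was counted over the shorter of the pair, so a wide peak counts as found when a small peak lies inside it. The shares by width are in part set by that rule.

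Peaks in regions of both tissues were wider and ranked higher than peaks in regions of 1 tissue. Their median width was 1197.5, 970.0 and 1076 bases in liver against 619, 594 and 577 in regions of liver alone. In heart it was 758, 918 and 746 bases against 386, 523 and 450. The ratio averaged 1.80, or 0.85 on the log2 scale (range 0.71 to 0.97, SD 0.11, higher in 6 of 6 libraries; exact sign-flip p = 0.031, adjusted p = 0.0391). The classes are not independent of width, since a wider region is more easily touched by a peak of the other tissue. The test cannot set this part of the width difference apart. The median percentile of fold was 77.1, 70.9 and 75.3 in both-tissue regions of liver against 50.1, 50.0 and 49.1 in liver-only regions, and 75.0, 77.9 and 71.7 against 46.0, 51.6 and 45.1 in heart. The gap averaged 26.0 points (range 20.9 to 29.0, SD 2.71, higher in 6 of 6 libraries; exact sign-flip p = 0.031, adjusted p = 0.0391). Intermediate regions lay close to those of 1 tissue, with medians of 46.4 to 54.9 points.

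Among peaks of the same decile of fold, the width difference was small in the lower deciles and opposite in the highest ones, a comparison chosen after seeing the data. In deciles 1 to 7 both-tissue peaks were the wider ones in 6 of 6 libraries, with mean log2 ratios per decile of 0.05 to 0.12. In decile 9 the 1-tissue peaks were the wider ones in 6 of 6 libraries, with a mean log2 ratio of -0.23 and a range of -0.33 to -0.12. In decile 10 the mean was -0.56, with a range of -0.71 to -0.37. The mean over the 10 deciles, -0.02 (exact sign-flip p = 0.125), therefore joins values of both signs. Within classes of width, also compared after seeing the data, the gap in fold rank averaged 8.13 points over 5 classes and the 6 libraries (5.36 to 9.86 per library; exact sign-flip p = 0.031). It was largest between 500 and 1000 bases, at a mean of 13.0 points, and smallest from 5000 bases up, at 2.88. Under 500 bases it averaged 4.80 points and was -0.32 in the liver of GuineaPig8.

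Regions with the promoter mark had opposite width differences in the 2 tissues. Regions were divided by whether a peak of H3K4me3 of the same tissue covered them in at least 1 animal, a division also made after seeing the data. Among regions with H3K4me3, peaks of liver-only regions had a median width of 1975 ± 171 bases and peaks of both-tissue regions 1519 ± 94.8 bases (SD, n = 3). The log2 ratio of both to liver alone was -0.38 ± 0.13, between -0.49 and -0.24 in the 3 livers. In heart the widths were 627 ± 42.4 bases for heart-only and 1017 ± 108 bases for both-tissue regions, with a log2 ratio of 0.69 ± 0.07 and a range of 0.62 to 0.75. All 3 livers lay below 0 and all 3 hearts above it (exact permutation p for liver against heart = 0.1, the smallest possible).

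The same liver-only regions with H3K4me3 also ranked high by fold. Their median percentile was 84.3 ± 1.36 against 89.5 ± 1.79 in both-tissue regions with H3K4me3, a gap of 5.13 ± 2.34 points (SD, n = 3). In heart the values were 63.6 ± 5.16 and 87.0 ± 2.43, a gap of 23.4 ± 2.96. They were few: 1429 liver-only regions (3.002%) and 2462 heart-only regions (7.22%) carried H3K4me3 in at least 1 animal. The H3K4me3 lists were longer in heart, with 21481, 24629 and 23231 peaks against 16530, 15898 and 14782 in liver. The part of list size in differences of H3K4me3 between the organs was not tested. Among regions without H3K4me3, the both-tissue regions were wider in both organs, with log2 ratios of 0.36 ± 0.15 in liver and 0.47 ± 0.07 in heart, above 0 in 6 of 6 libraries (exact sign-flip p = 0.031). Their gap in fold rank was 8.97 ± 5.08 points in liver and 11.8 ± 1.21 in heart (SD, n = 3), a mean of 10.4 (exact sign-flip p = 0.031) against 26.0 over all regions.

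**Figure D3:**
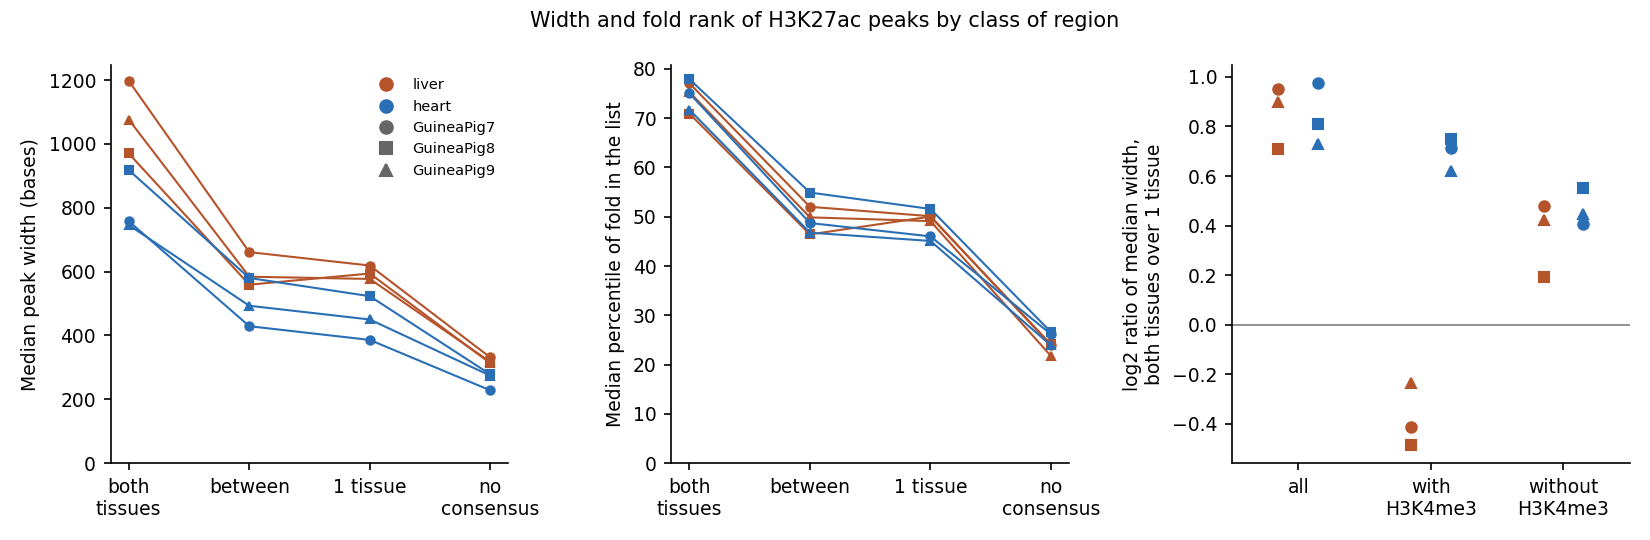
Median peak width in bases (left) and median percentile of fold (middle) of H3K27ac peaks by class of consensus region, 1 line per library, and the log2 ratio of median widths in both-tissue over 1-tissue regions (right) for all regions and for those with and without H3K4me3. Colours are tissues and marker shapes animals; with H3K4me3 the 3 liver points lie below 0 (-0.49 to -0.24) and the 3 heart points above (0.62 to 0.75).

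H3K4me3 was largely a property of shared regions. An H3K4me3 peak of the same tissue and animal covered 41.9%, 40.0045% and 38.0% of the both-tissue regions of liver and 2.61%, 2.31% and 1.90% of the liver-only regions. In heart it covered 47.1%, 47.1% and 48.3% of the both-tissue regions and 5.64%, 5.51% and 6.40% of the heart-only ones. The difference averaged 39.7 percentage points (range 36.1 to 41.9, SD 2.41, higher in 6 of 6 libraries; exact sign-flip p = 0.031, adjusted p = 0.0391). Both-tissue regions were also wider than 1-tissue regions, and the part of width in this difference was not tested. Intermediate regions lay between these classes, at 4.39% to 6.64% in liver and 10.1% to 11.6% in heart, above the 1-tissue regions in 6 of 6 libraries. The other tissue's H3K4me3 was nearly absent at regions of 1 tissue: heart H3K4me3 covered 0.567% to 0.739% of liver-only regions, and liver H3K4me3 covered 0.0645% to 0.229% of heart-only regions.

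H3K4me1 gave different values in the 2 organs. In liver it covered 69.9%, 59.3% and 59.2% of both-tissue regions and 68.6%, 65.9% and 58.6% of liver-only regions, values that overlapped. In heart it covered 48.3%, 50.3% and 53.6% of both-tissue regions and 37.9%, 40.8% and 48.9% of heart-only regions, lower in heart-only regions in each animal. The difference was -1.59 ± 4.41 points in liver and 8.20 ± 3.07 in heart (SD, n = 3), without overlap (exact permutation p = 0.1), and its mean over the 6 libraries, 3.30 points, did not pass the test (exact sign-flip p = 0.28125). That mean depended on how regions were matched. It was 10.2 when an overlap of 1 base counted (exact sign-flip p = 0.031) and -9.24 when consensus regions had to be covered in all 3 libraries (exact sign-flip p = 0.031).

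Without H3K4me3 the heart difference was larger. Among such regions, H3K4me1 covered 65.7% ± 3.605 of both-tissue and 43.3% ± 5.83 of heart-only regions, and 61.5% ± 7.79 and 64.0% ± 5.25 of the corresponding liver regions (SD, n = 3). The lists of the mark differed in size, with 90479, 106576 and 130362 H3K4me1 peaks in heart and 136264, 132064 and 119768 in liver, and the part of list size in these shares was not tested. The other tissue's H3K4me1 was found at more regions of 1 tissue than its H3K4me3, at 7.20% to 11.2% of liver-only regions in heart and at 9.54% to 14.5% of heart-only regions in liver. These are regions where the second organ carried H3K4me1 with no H3K27ac peak.

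**Figure D4:**
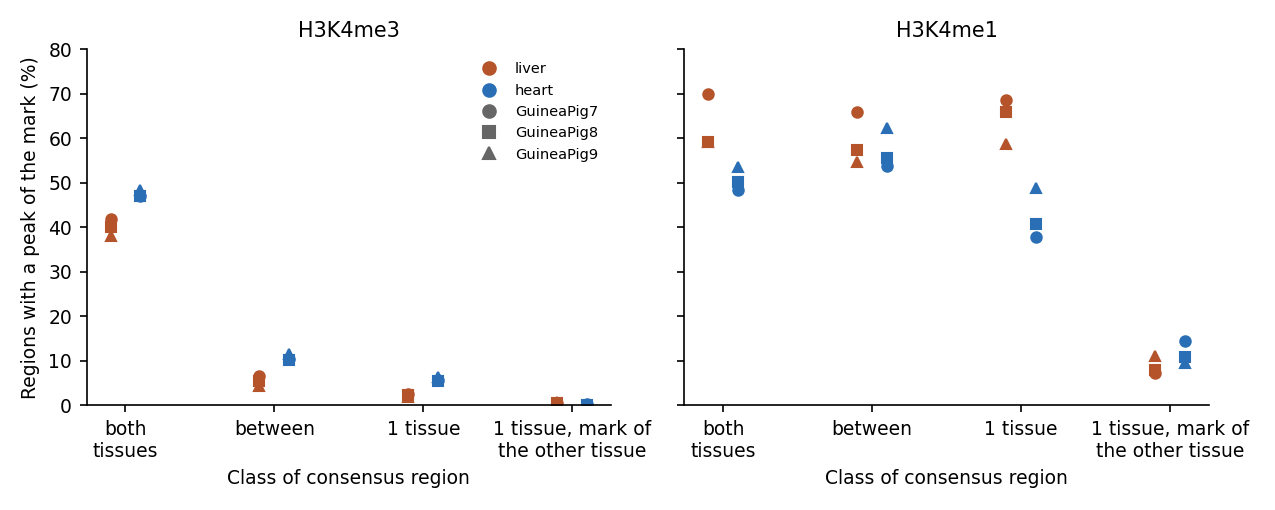
Percentage of H3K27ac consensus regions with a peak of H3K4me3 (left) or H3K4me1 (right) of the same animal, by class of region; colours are tissues, marker shapes animals. The right-hand class gives the mark of the other tissue at regions of 1 tissue, which is at most 0.739% for H3K4me3 and between 7.20% and 14.5% for H3K4me1.

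The strongest shared regions carried H3K4me3 in both organs. The 5 regions with the highest mean percentile over all 6 lists had H3K4me3 peaks in all 3 livers and all 3 hearts. The first lay at DS562899.1:3074508-3078060, with a fold of 135, 113 and 112 in the livers of GuineaPig7, GuineaPig8 and GuineaPig9 and 118, 125 and 79.6 in their hearts, and no H3K4me1 peak in any of the 6 libraries. The second, at DS562857.1:11576333-11599442, spanned 23110 bases, with folds of 156, 104 and 98.9 in liver and 85.3, 78.8 and 71.9 in heart, and carried H3K4me1 in all 6. The third was at DS562904.1:2788158-2792584, with 127, 81.6 and 152 in liver and 122, 95.8 and 63.3 in heart. The 4th and 5th, at DS562885.1:10929178-10935373 and DS563016.1:704036-705713, had folds of 78.6 to 157 in liver and 61.3 to 119 in heart. At each of these, every list placed the peak above the 99th percentile.

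A single short region stood apart by significance and was singled out after its values were seen. At DS564318.1:11439-13375 the −log10 q given by the authors' peak caller was 13241, 10251 and 12240 in the livers and 3086, 3105 and 3497.7 in the hearts. Its fold was 141, 148 and 134 in liver and 53.6, 50.7 and 41.2 in heart, on different lists with no common scale. H3K4me3 and H3K4me1 peaks were listed there in all 3 animals of both tissues. In the liver list of GuineaPig7, DS563016.1:704036-705713 had a higher fold, 157, at a −log10 q of 929.7. The lists hold no read numbers, so the reads behind these q values are unknown. What sets the q of the short region apart was not tested.

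The strongest liver-only regions were broad, and 4 of the 5 carried liver H3K4me3. The first lay at DS562877.1:9598881-9608670, 9790 bases wide, with folds of 79.0, 61.8 and 71.5 in the 3 livers, H3K4me3 and H3K4me1 in all 3 livers and neither in any heart. The second, at DS562856.1:22345571-22351894, had folds of 80.6, 62.7 and 58.9. The third, at DS563189.1:422309-425384, had 62.2, 64.4 and 77.8. Both carried H3K4me1 in heart as well, in 3 and 2 animals, with no H3K27ac there. The 4th, at DS562910.1:2880087-2888294, had folds of 75.0, 54.9 and 63.2 and was the enhancer-like one, with H3K4me1 in all 3 livers and no H3K4me3. The 5th, at DS562857.1:51864145-51880332, was 16188 bases wide with folds of 53.8, 69.3 and 79.1.

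The strongest heart-only regions had lower mean percentiles than the liver-only ones, 96.9 to 97.5 against 99.5 to 99.8, though single values overlapped. The first, at DS563014.1:1999850-2008043, had folds of 37.2, 31.0 and 23.6 in the 3 hearts, at percentiles 98.1, 97.9 and 96.6 of their lists. Single values of the 5 liver-only regions lay between 98.9 and 99.9, and heart-only regions 2, 3 and 5 reached 99.4, 99.6 and 99.5 in GuineaPig8. The second, at DS563012.1:589220-592219, had folds of 36.1, 43.4 and 20.0. The third, at DS562913.1:7406410-7409021, had 41.3, 47.8 and 18.2. The percentile was lowest in the heart of GuineaPig9 at each of these 3. The 4th, at DS562856.1:65179752-65181720, was 1969 bases wide with folds of 27.7, 32.4 and 26.1, H3K4me1 in all 3 hearts, and no H3K4me3. The 5th, at DS562886.1:6080590-6086249, had folds of 35.5, 44.3 and 18.6 and, like the first 3, H3K4me3 in all 3 hearts and in no liver. It carried H3K4me1 in all 3 livers and in no heart.

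The broadest regions of 1 tissue were longer in liver. The 5 widest liver-only regions measured 31378, 23228, 20634, 20634 and 19629 bases, and the 5 widest heart-only regions 12292, 11774, 10889, 10126 and 9900. The widest liver-only region, at DS562912.1:2124425-2155802, had folds of 41.8, 23.1 and 27.6 and H3K4me1 without H3K4me3, while the other 4 had H3K4me3 in all 3 livers. The second, at DS562898.1:1066985-1090212, had folds of 21.7, 44.9 and 51.3. The widest heart-only region, at DS562859.1:16990410-17002701, had folds of 22.7, 23.4 and 14.7. All 5 of the heart-only group had H3K4me3 and H3K4me1 in the 3 hearts and no H3K4me3 in liver.

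Summits, the positions of highest signal within peaks, were compared at 21964 regions that had a peak in all 6 lists. From each list the peak of highest fold at the region was taken, for summits and for ranks of fold. The peaks taken from 2 lists need not overlap, and how often they did not was not counted. The median distance between the summits of 2 libraries was 63 to 65 bases for pairs of livers, 70 to 85 for pairs of hearts and 94 to 112 for a liver and a heart. Pairs of different tissues averaged 101.9 bases and pairs of the same tissue 71.8, a difference of 30.1 bases (exact permutation p = 0.1, adjusted p = 0.125). Summits lay within 150 bases of each other at 67.1% of regions within a tissue and at 58.8% between tissues. They lay over 1000 bases apart at 5.49% and 8.51%. Liver and heart of the same animal were no nearer to each other, at a mean of 102.3 bases for the 3 same-animal pairs and 101.7 for the 6 others.

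Ranks of fold at the same regions were recomputed among these regions alone. As a description over regions, which are not replicates, Spearman's rho was 0.85 to 0.87 between livers, 0.75 to 0.77 between hearts and 0.54 to 0.67 between tissues. All 3 liver ranks lay above all 3 heart ranks at 3647 of the 21964 regions (16.6%), and all 3 heart ranks above all 3 liver ranks at 3804 (17.3%). With a difference of mean ranks of at least 20 points, the count was 2582 higher in liver (11.8%) and 2685 higher in heart (12.2%). Ranks within a list sum to the same total, and no test was made of these counts.

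Rank at promoter-like regions was more alike in the 2 organs than rank elsewhere. At 10933 regions with H3K4me3 in all 6 libraries, rho averaged 0.76 within and 0.56 between tissues. At 7725 regions with H3K4me3 in none, it averaged 0.61 within and 0.16 between tissues, with a range between tissues of 0.10 to 0.20. The regions with H3K4me3 ranked higher, with median mean ranks of 71.6 in liver and 68.8 in heart against 24.7 and 25.9, so the ranges of fold differ between the groups. Of the regions with H3K4me3, 1139 (10.4%) were higher in liver by at least 20 points and 722 (6.60%) higher in heart, and of those without it 1091 (14.1%) and 1158 (15.0%).

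**Figure D5:**
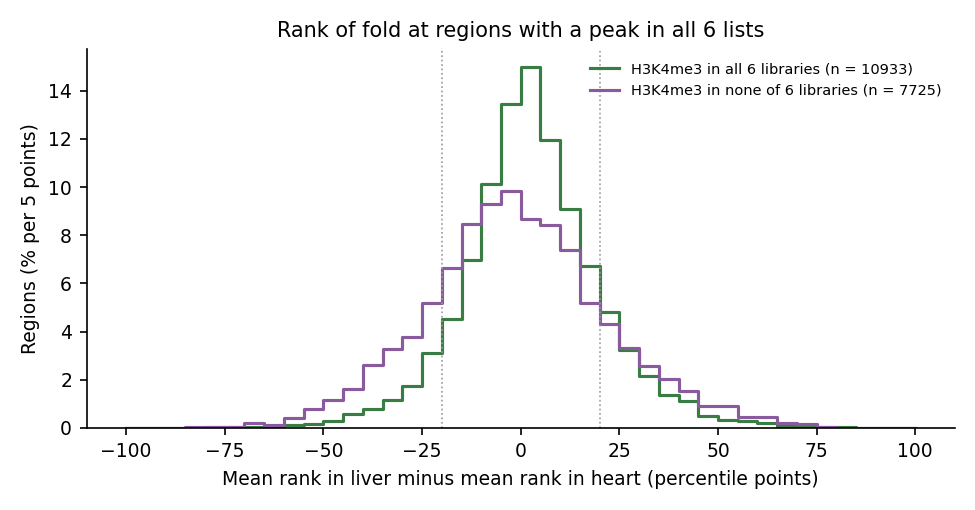
Distribution of the difference in mean rank of fold, liver minus heart in percentile points, at regions with a peak in all 6 lists, for 10933 regions with H3K4me3 in all 6 libraries and 7725 with H3K4me3 in none; the y axis is the percentage of regions per 5 points. Dotted lines mark 20 points in each direction; the curve without H3K4me3 is the broader one, with a median absolute difference of 14.3 points against 9.87.

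Where H3K4me3 itself differed, acetylation rank differed with it. At 142 regions with H3K4me3 in at least 2 livers and no heart, the median rank was 75.9 in liver and 25.9 in heart, and 109 (76.8%) were higher in liver by at least 20 points against 11.8% of all regions. At 1304 regions with H3K4me3 in at least 2 hearts and no liver, the median rank was 43.3 in heart and 28.1 in liver, and 429 (32.9%) were higher in heart against 12.2% of all regions. Heart H3K4me3 lists were the longer ones, and the part of list size in the numbers of such regions was not tested. Width moved with rank too. Peaks of regions ranked higher in liver had median widths of 2581.5 bases in liver and 732 in heart. Those of regions ranked higher in heart had 943 bases in liver and 1831 in heart. At the 16697 regions in neither group the medians were 1481 bases in liver and 1127 in heart.

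The largest rank differences ran between the top and the bottom of the ranks among these 21964 regions, which are not ranks in the whole lists. Towards liver the first was DS562886.1:4532363-4551881, 19519 bases wide, with ranks of 96.7, 98.7 and 89.1 in the livers and 1.7, 8.6 and 0.5 in the hearts. In the whole heart lists its peaks stood at percentiles 11.3, 48.1 and 2.08. Its folds were 60.5, 58.7 and 37.8 in liver and 3.87, 5.41 and 3.28 in heart, and it carried H3K4me3 in all 3 livers and no heart. The second, at DS562873.1:27690688-27703530, had folds of 52.8, 62.0 and 46.3 in liver and 4.55, 6.09 and 5.51 in heart, with no H3K4me3 in either organ. The next 3, at DS562870.1:37328572-37333614, DS562866.1:11425794-11432101 and DS562863.1:25296793-25301998, differed by 85.9, 83.9 and 83.7 points.

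Towards heart the first was DS562875.1:19273816-19277075, with ranks of 92.1, 83.7 and 91.8 in the hearts and 2.9, 3.7 and 3.0 in the livers. Its folds were 37.0, 25.0 and 26.8 in heart and 3.93, 3.52 and 3.88 in liver, and it had H3K4me1 in all 3 hearts and 1 liver and no H3K4me3. The second, at DS562883.1:26709732-26719421, had folds of 34.1, 30.5 and 26.7 in heart and 6.02, 3.83 and 5.02 in liver, where its peaks were at percentiles 60.0, 23.6 and 49.4 of the whole lists. At the third, DS562866.1:37938820-37944238, H3K4me3 was listed in all 6 libraries although the rank differed by -80.3 points (liver minus heart), with folds of 33.5, 29.3 and 46.2 in heart and 5.24, 4.13 and 6.55 in liver. The 4th and 5th, at DS562999.1:2236162-2238299 and DS562883.1:23245156-23249958, differed by -80.1 and -79.2 points.

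Regions of 1 tissue lay next to each other along the scaffolds. Liver-only regions made up 43.5% of the regions found in both tissues or in 1, but the nearest neighbour of a liver-only region was liver-only in 80.7% of cases, found in both in 15.4% and heart-only in 3.93%. For heart-only regions, 31.1% of the total, the neighbour was heart-only in 77.5%, found in both in 16.6% and liver-only in 5.88%. The median distance to the neighbour was 307 bases for liver-only and 323 for heart-only regions (how far this comes from 1 acetylated stretch being listed in pieces was not tested). Regions in both tissues were 622 bases from their neighbour, which was also found in both in 48.6%.

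When neighbours up to 12.5 kb apart were joined, 69.5% of the liver-only and 65.9% of the heart-only regions fell into runs of at least 3, and 647 liver and 433 heart runs had at least 10. The longest liver run lay at DS562879.1:14662758-14826533, with 47 liver-only regions over 164 kb, a single both-tissue region, no heart-only region and 3 intermediate heart regions inside. It contains the 4th widest liver-only region, at DS562879.1:14767484-14788117. The second, at DS562869.1:38839559-38938437, had 43 regions over 98.9 kb, and the third, at DS562856.1:30361908-30454502, had 41 over 92.6 kb with no both-tissue or heart-only region and 1 intermediate region. Their median folds were modest, 5.11 to 6.497 across libraries.

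The longest heart runs were a little shorter by number. The first, at DS562856.1:57045134-57164558, had 37 heart-only regions over 119 kb, and the second, at DS562866.1:4776188-4842483, had 37 over 66.3 kb, both with no both-tissue or liver-only region inside; the first held 1 intermediate region and the second 0. The third, at DS562870.1:29148197-29221912, had 36 over 73.7 kb with 2 both-tissue regions. Their median folds were 5.26 to 7.95 across libraries. Scaffolds differed in their balance: among 46 scaffolds with at least 500 regions of 1 tissue, liver-only regions made up 45.9% to 74.7% with a median of 58.7%. The highest share was on DS562884.1, with 588 liver-only and 199 heart-only regions, and the lowest on DS562908.1, with 285 and 336.

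The guinea pig was set against the other 3 rodents of the series by 2 measures that need no consensus, the share of peaks found in single lists of the other tissue and the gap in fold rank between peaks found in at least 1 such list and the rest. The mice were C57BL/6J males aged 2 months, the naked mole-rats males of 13 to 17 months and the Damaraland mole-rats 36 to 48 months by estimate, males but for 1 liver; all were wild-type adults, and age and species cannot be told apart. In liver the rank gap was 29.0, 26.0 and 28.8 points in the guinea pigs, 14.8 ± 1.39 in mouse (n = 4), 21.3 ± 1.499 in naked mole-rat (n = 5) and 16.4 ± 2.09 in Damaraland mole-rat (n = 5; SDs). The 3 guinea pig livers lay above each of the 14 livers of the other species, whose highest value was 23.0. The exact permutation p-values were 0.0286, 0.0179 and 0.0179, and none passed after adjustment over 12 comparisons (adjusted p = 0.0857 for each). This gap depends on how many lists of the other tissue there are, since 1 match is enough. For liver peaks these were 3 heart lists in guinea pig and naked mole-rat, 6 in mouse and 5 in Damaraland mole-rat. With 1 guinea pig heart left out, the difference from mouse was 13.9 to 15.3 points in place of 13.1. The part of list number in the gap was not tested. In heart the gap was 29.2 ± 0.666 points in guinea pig (n = 3), 31.9 ± 2.03 in mouse (n = 6; exact permutation p = 0.0476, adjusted p = 0.114), 29.8 ± 0.789 in naked mole-rat (n = 3) and 26.9 ± 8.00 in Damaraland mole-rat (n = 5), where 1 library was at 12.8. That library had the shortest list of its group, with 51446 peaks. For heart peaks the lists of the other tissue were 3 in guinea pig, 4 in mouse and 5 in each mole-rat. With 1 guinea pig liver left out, the difference from mouse was -1.89 to -0.84 points in place of -2.71. The exact permutation p was then 0.18 to 0.54. The part of list number in the heart gap was not tested either.

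The share of liver peaks found in a single heart list was 34.4% ± 0.241 in guinea pig (n = 3), 43.3% ± 0.515 in mouse (n = 4), 35.8% ± 2.29 in naked mole-rat and 36.9% ± 2.80 in Damaraland mole-rat (n = 5 each; SDs). The exact permutation p against mouse was 0.0286 (adjusted p = 0.0857). Mouse liver lists were shorter, with 56871 to 63479 peaks, and with the 51446 peaks of the highest fold in every list the difference from mouse changed sign, from -8.93 to 0.08 points. The share of heart peaks found in a single liver list was 42.5% ± 2.38 in guinea pig, 37.3% ± 6.16 in mouse, 32.7% ± 1.01 in naked mole-rat and 36.1% ± 6.47 in Damaraland mole-rat, with adjusted exact permutation p-values of 0.286, 0.200 and 0.276. Of the 12 comparisons, 0 passed after adjustment and 5 were below 0.05 unadjusted.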

How the data were processed

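Per the submitters' processing notes the peaks were called with MACS2, and each deposited narrowPeak list names 1 input library; the sources used here give no aligner and no version, and the lists hold no read numbers, so the depth is unknown. The fold of a peak is a linear ratio that the authors' peak caller gave, and the deposited −log10 p and −log10 q values of the peaks came from it too (lowest −log10 q 1.30). Fold was only ranked within a list.

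Intervals were intersected in NumPy 2.4.6, and the interval code was tested on simulated data (Python 3.11.15; correlations from SciPy 1.17.1). Liver was compared with heart by exact permutation over 6 libraries, and both-tissue with 1-tissue regions by exact sign-flip over 6 libraries, each adjusted by Benjamini-Hochberg over 5 results. Liver and heart share animals per the labels; at common regions, deviations of same-animal libraries from their tissue means had correlations of -0.018 to 0.006, so the pairing rests on the labels. Named regions are the 5 highest by mean percentile of fold per class (with a peak in all libraries concerned), the 5 widest per tissue, the 5 largest rank differences in each direction and the 3 longest runs. The measures, classes and this rule were chosen with earlier results of these data known.

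Sequence and genes at the regions were not analysed here. P-values take libraries as the units. A sign-flip p of 0.031 over 6 libraries and a permutation p of 0.1 for 3 against 3 are the smallest possible, whatever the spread. The region classes were built from all 6 lists, so the values of the 6 libraries are not fully independent.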

Additional observations from a re-analysis of the deposited data

Results flagged for a closer look

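Among regions with H3K4me3, the log2 ratio of peak width in both-tissue regions to that in 1-tissue regions went in opposite directions in the organs, with a mean of -0.38 in liver and 0.69 in heart, and each library had the sign of its tissue. The 3 against 3 comparison gave an exact permutation p of 0.1, the smallest it allows. The cause was not tested.

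In the comparison with other species, the heart library DMR1 of the Damaraland mole-rat had a rank gap of 12.8 points, far below the 28.6 to 32.0 of the other 4 hearts of that group. Its list was also the shortest of that group, with 51446 peaks against 87308 to 139112 in the other 4, and the part of list length was not tested. DMR1 was the only library that stood apart among 10 sets of values tested for this (5 groups of 4 to 6 libraries, 2 measures each), and chance flags about 1 set in 20.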

How the results depend on the processing

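With the animal as replicate block the values for regions in both tissues against 1 tissue were the same, 0.85 (log2 width), 26.0 points of rank, 66.0 points for the fold deciles and 39.7 points for H3K4me3, with exact sign-flip p = 0.25, the smallest 3 animals allow; the block changed no other call. With 1 library left out the exact sign-flip p cannot go below 0.0625, and the values were 0.88 to 0.92, 26.6 to 27.5, 66.6 to 69.6 and 40.9 to 43.5 points. For liver against heart it gave 0.03 to 0.17 (log2 number), 0.29 to 0.41 (log2 width), 0.51 to 0.69 (log2 bases), -15.0 to -2.62 points of share and 24.8 to 34.2 bases of summit distance; a consensus of 2 remaining libraries needs both. The H3K4me1 difference ranged from -1.79 to 2.68 points, and was -1.79 without the liver of GuineaPig7 and -0.78 without that of GuineaPig9. It was 10.2 with 1 base of overlap, -2.36 with 50% of the longer region, -9.24 with coverage in all 3 libraries and -4.36 at regions with H3K4me3. Liver minus heart, the share was -1.10 points with 50% of the longer region. The log2 width ratio was 0.16 at regions with H3K4me3 (exact sign-flip p = 0.531) and -0.017 as the mean over deciles of fold. With 30 points, 1540 regions ranked higher in liver and 1611 in heart; leaving out 1 library gave 2915 to 3382 and 2989 to 3502. Other causes were not tested.

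Against other species, 0 of 12 comparisons passed under each alternative. With equal numbers of peaks the liver share differences became 0.0837 (mouse), 1.05 (naked mole-rat) and 2.19 points (Damaraland mole-rat), and the heart rank gaps 0.98 (mouse) and 2.22 (naked mole-rat). Without 1 guinea pig library the last was -0.853 to 1.23, with 1.23, 0.19 and 0.86 without the liver of GuineaPig7, GuineaPig8 and GuineaPig9. It was 0.90 at −log10 q of at least 4. The results on liver against heart kept their direction under each alternative run. An equal number of peaks gives no value for peak number. The lists hold no depth, so precision rests on the number of libraries.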
